A study of Mus musculus with 30 samples.

Results

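Interferon gamma (IFNG) is best known for the genes it switches on in macrophages, and the transcripts described here are those that went the other way. They were 104 genes whose RNA was lower after 4 h of IFNG in each of 5 clones of J774A.1, a mouse macrophage-like line grown from a tumour. Members had a mean untreated level of at least 2 CPM (a gene's reads scaled to the total reads counted in its library) in every clone and a response of -0.8 or lower in every clone, where the response is log2((mean IFNG CPM + 0.5)/(mean untreated CPM + 0.5)). Symbols starting with Cxcl, Ccl or Il1 were left out, which removed only Cxcl2. Of 54146 genes in the table, 10895 reached 2 CPM untreated in all clones, and the 104 members were 0.955% of these. The members were chosen by these untreated and IFNG levels, so their response is described here without a test.

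The 5 clones were 3 wild-type clones (WT1, WT2 and WT3), expanded from single cells without electroporation, and 2 CRISPR knockout clones (KO1 and KO2). The knockout clones were homozygous by PCR for a deletion of B2_Mm2.Dicer1, a transposable element of the B2 short interspersed family in an intron of Dicer1. Each clone was left untreated or given 100 ng/mL of recombinant mouse IFNG for 4 h, and 3 polyA RNA libraries were made of each clone and treatment, 30 in all. The study asked how the deletion alters Dicer1 and the IFNG response. Each clone is a single lineage, and nothing in the labels says that its 3 libraries came from separate cultures, so p-values over libraries may measure a spread that is partly technical, and a KO to WT difference rests on 2 clones against 3.

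IFNG binds a receptor that signals through the kinases JAK1 and JAK2 to gamma-activated sites (GAS) at promoters and enhancers, and the IRF1 made in this way binds interferon-stimulated response elements (ISRE). Induction is the larger and better studied arm. IFNG also lowers the expression of other genes, among them genes of the alternatively activated macrophage.

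Library totals ranged from 15566122 to 37992642 counts. Libraries of a group differed by more than counting noise in all 30 pairs (chi-square per degree of freedom 1.95 to 19.5), and none was a repeat of another. In the IFNG-treated WT1 group the third library in column order stood apart, since it was the highest of its 3 libraries for 65 of the 104 members. Dicer1 lay between 99.2 and 133 CPM in the untreated WT libraries, between 69.9 and 74.1 CPM in KO1 and between 102 and 111 CPM in KO2. After IFNG it lay between 131 and 169 CPM in WT, between 68.3 and 77.7 CPM in KO1 and between 91.9 and 101 CPM in KO2. The deletion is intronic, so exon counts do not read it directly. Irf1, the early IFNG-induced transcription factor, went from a mean of 18.1 to 25.6 CPM across the untreated clones to 678 to 893 CPM after IFNG. All 12 macrophage markers were detected, with a summed level of 5480 to 8094 CPM untreated and 4951 to 7285 CPM after IFNG. Of the T cell markers, Cd8a and Trac had no read in any library and Cd3e reached at most 0.0472 CPM, while Lck lay between 2.57 and 9.37 CPM. On the scale of library totals the median response of the 10895 genes was between -0.11 and -0.04 in the 5 clones, and with TMM scaling it was between -0.03 and 0.00.

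The 104 members had a median response of -1.17, the mean over the 5 clones ranging from -2.79 for Cxcr4 to -0.85 for Gm45883. After IFNG a median of 43.2% of the untreated level was left (14.2% to 54.9%). The mean response was at or below -1 in 95 members, at or below -1.5 in 13 and at or below -2 in 4. In all 104 members every untreated library of a clone lay above every IFNG library of the same clone, and in 69 the 15 untreated libraries lay above the 15 IFNG libraries whatever the clone. The rule used these same values and asked for a fall in every clone, so this separation is no separate evidence of the fall. It was not counted over the 10895 genes. For reference, edgeR called 53.2% of 14525 genes, 28.3% lower and 24.9% higher, in this contrast (Benjamini-Hochberg adjusted p under 0.05), and nothing is read from the members' own calls there, since the rule used the same values. Their untreated level had a median of 34.2 CPM (3.11 to 413 CPM) against 36.3 CPM for the 10895 genes. Together they made up 5436 to 6957 CPM of an untreated library and 2173 to 3521 CPM of an IFNG library. These are bulk libraries, so fewer cells carrying a transcript and less of it per cell cannot be told apart.

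At the threshold, the members just inside were Klf11, Hal and Gm45883, whose least repressed clone had a response of -0.802, -0.802 and -0.803. Just outside were Rusc2, Pid1 and Tnfsf9, with -0.797, -0.797 and -0.796. Cxcl2, which only the symbol rule removed, had responses of -3.16, -2.86 and -3.13 in WT1, WT2 and WT3 and of -1.95 and -1.85 in KO1 and KO2.

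**Figure D1:**
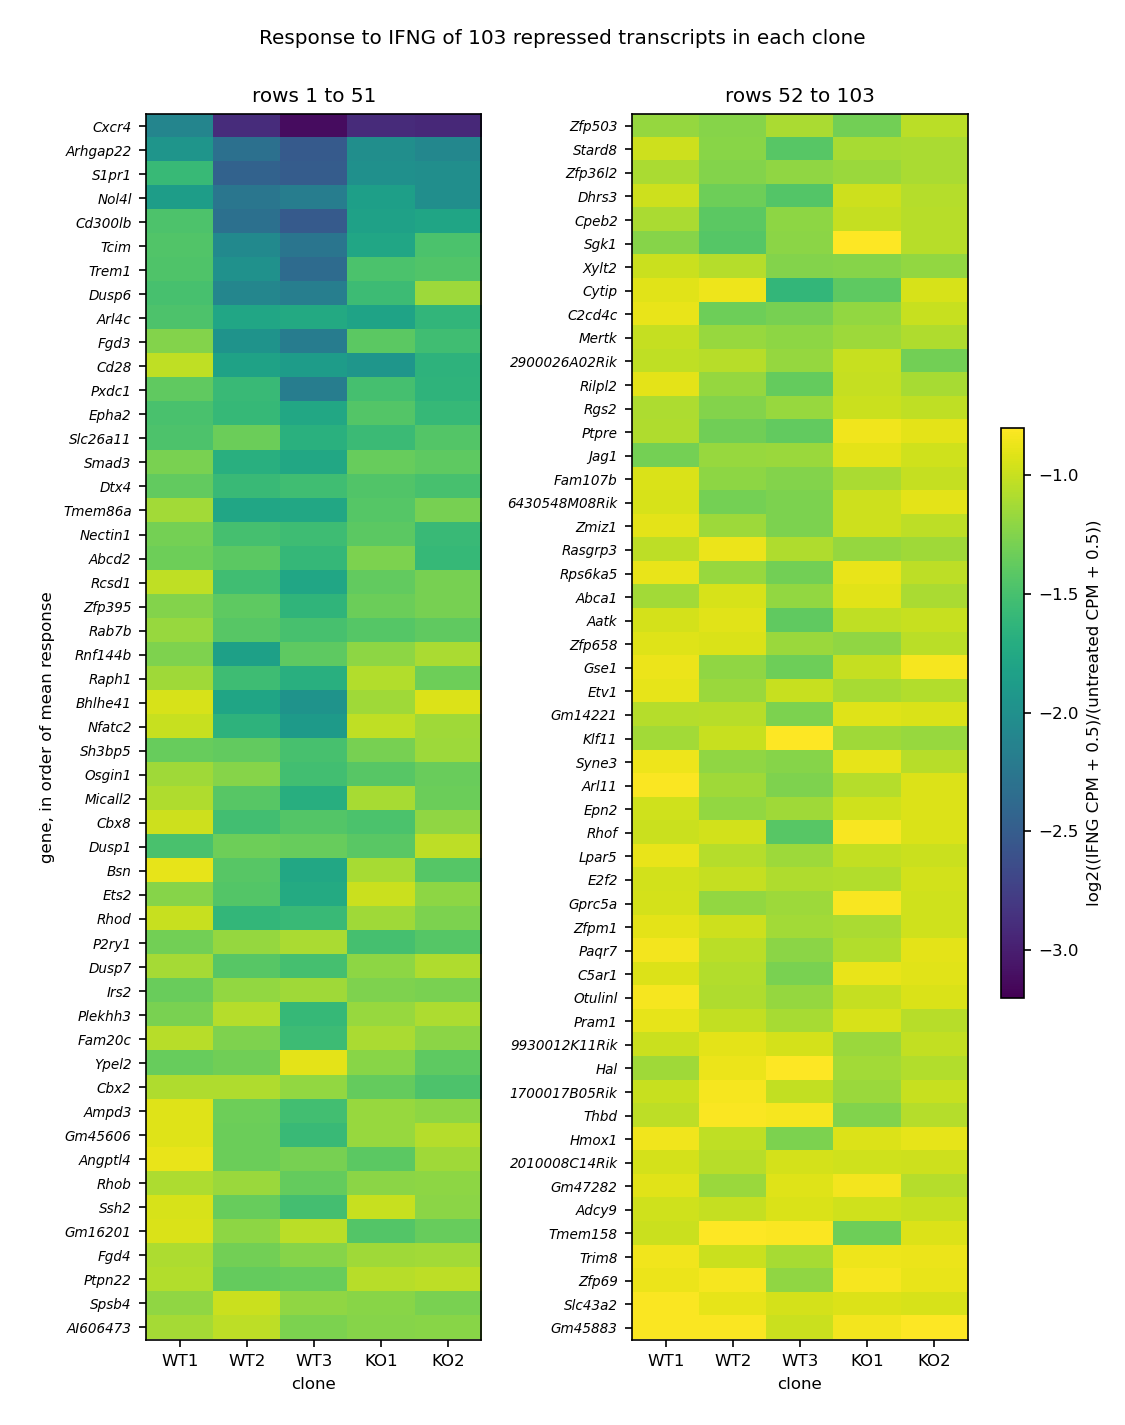
Response to IFNG, log2((IFNG CPM + 0.5)/(untreated CPM + 0.5)), of 103 of the 104 members (rows, in order of their mean over clones) in the 5 clones (columns), each cell from the means of 3 untreated and 3 IFNG libraries. Darker cells are larger falls: Cxcr4 is darkest, at -3.12 in WT3, and the WT1 column is paler than WT2 and WT3 for most of the upper rows.

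Members are described by role, and the roles were assigned from general knowledge once the members were known. The 16 cell surface receptors had a median response of -1.22. Cxcr4, the receptor for the chemokine CXCL12 that keeps leukocytes in bone marrow and tissue, had the largest fall of the 104. Its untreated level ran from 38.5 to 81.4 CPM (median 59.0 CPM, n = 15 libraries), and its IFNG level from 3.88 to 18.6 CPM (median 7.74 CPM, n = 15). No IFNG library reached the lowest untreated library, and the highest IFNG value belonged to WT1. The response was -2.11 in WT1, -2.89 in WT2, -3.12 in WT3, -2.91 in KO1 and -2.92 in KO2.

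S1pr1, a receptor for sphingosine-1-phosphate that guides leukocytes out of tissue, was at 153 to 181 CPM untreated (median 165 CPM, n = 15) and at 27.4 to 57.6 CPM after IFNG (median 40.9 CPM, n = 15). Its IFNG level was highest in the 3 WT1 libraries, at 46.9, 50 and 57.6 CPM. WT2 and WT3 together held the 6 lowest IFNG values, 27.4 to 31.2 CPM. The response was -1.59 in WT1, -2.45 in WT2, -2.50 in WT3, -2.0 in KO1 and -2.02 in KO2.

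Further receptors with large falls belonged to the immunoglobulin-like families. Cd300lb, an activating receptor of myeloid cells, was at 44.0 to 86.2 CPM untreated (median 56.0 CPM, n = 15) and at 7.47 to 26 CPM after IFNG (median 14.8 CPM), a mean response of -1.98 ± 0.43 (SD, n = 5 clones). Trem1, which amplifies inflammatory signals of myeloid cells, was at 6.53 to 35.7 CPM untreated (median 23.2 CPM) and at 2.46 to 9.96 CPM after IFNG (median 7.17 CPM), with a mean response of -1.75 ± 0.41. The groups overlapped for Trem1 only because of KO1, whose untreated libraries held 6.53, 8.97 and 10.4 CPM. Cd28, the costimulatory receptor best known from T cells, responded with -1.66 ± 0.37, from untreated levels that differed widely between clones: 201 to 220 CPM in WT1, 71.7 to 80.3 CPM in WT2, 102 to 123 CPM in WT3, 9.16 to 10.8 CPM in KO1 and 20 to 26.3 CPM in KO2. The T cell genes Cd3e, Cd3d, Cd4, Cd8a and Trac were at most 0.174 CPM in the same libraries, while Lck lay between 2.57 and 9.37 CPM. The source of the Cd28 reads was not tested.

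C5ar1, the receptor for the complement fragment C5a, took the most reads of any member, without regard to transcript length. It was at 348 to 480 CPM untreated (median 420 CPM, n = 15) and at 161 to 262 CPM after IFNG (median 192 CPM), with no overlap and with responses between -1.29 in WT3 and -0.88 in KO1. The ADP receptor P2ry1 had a mean response of -1.31 ± 0.17 (SD over 5 clones) and the lysophosphatidic acid receptor Lpar5 of -1.02 ± 0.10. Mertk, a receptor tyrosine kinase for the uptake of apoptotic cells, responded with -1.12 ± 0.08, and Jag1, a ligand of Notch receptors, with -1.10 ± 0.16.

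The other genes of these families went both ways. The gene lists used here were chosen with earlier results of these data known, and the calls on them come from the same contrast as the rule. Of all 14525 genes tested in it 28.3% were called lower and 24.9% higher, and every list below is to be read beside these shares. Of 33 tested G protein-coupled receptors of macrophages 15 were called lower and 14 higher by edgeR at an adjusted p under 0.05. The lower ones included 6 members, which are lower by the rule, and of the other 27 genes 9 were called lower. The median log2FC of the list was -0.12, against -0.01 over all genes tested. The sphingosine-1-phosphate receptor S1pr2 rose from a mean of 39.8 to 69.4 CPM (log2FC 0.88), and C3ar1, the receptor for C3a, rose by 0.29 on the log2 scale. Cx3cr1 and Gpr183 fell (log2FC -0.93 and -0.90) without meeting the rule. Of 16 tested regulators of G protein signalling and arrestin or Arf partners, 12 were called lower and 4 higher (median -0.28). They included the members Arl4c and Rgs2, and 10 of the other 14 were called lower too.

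**Figure D2:**
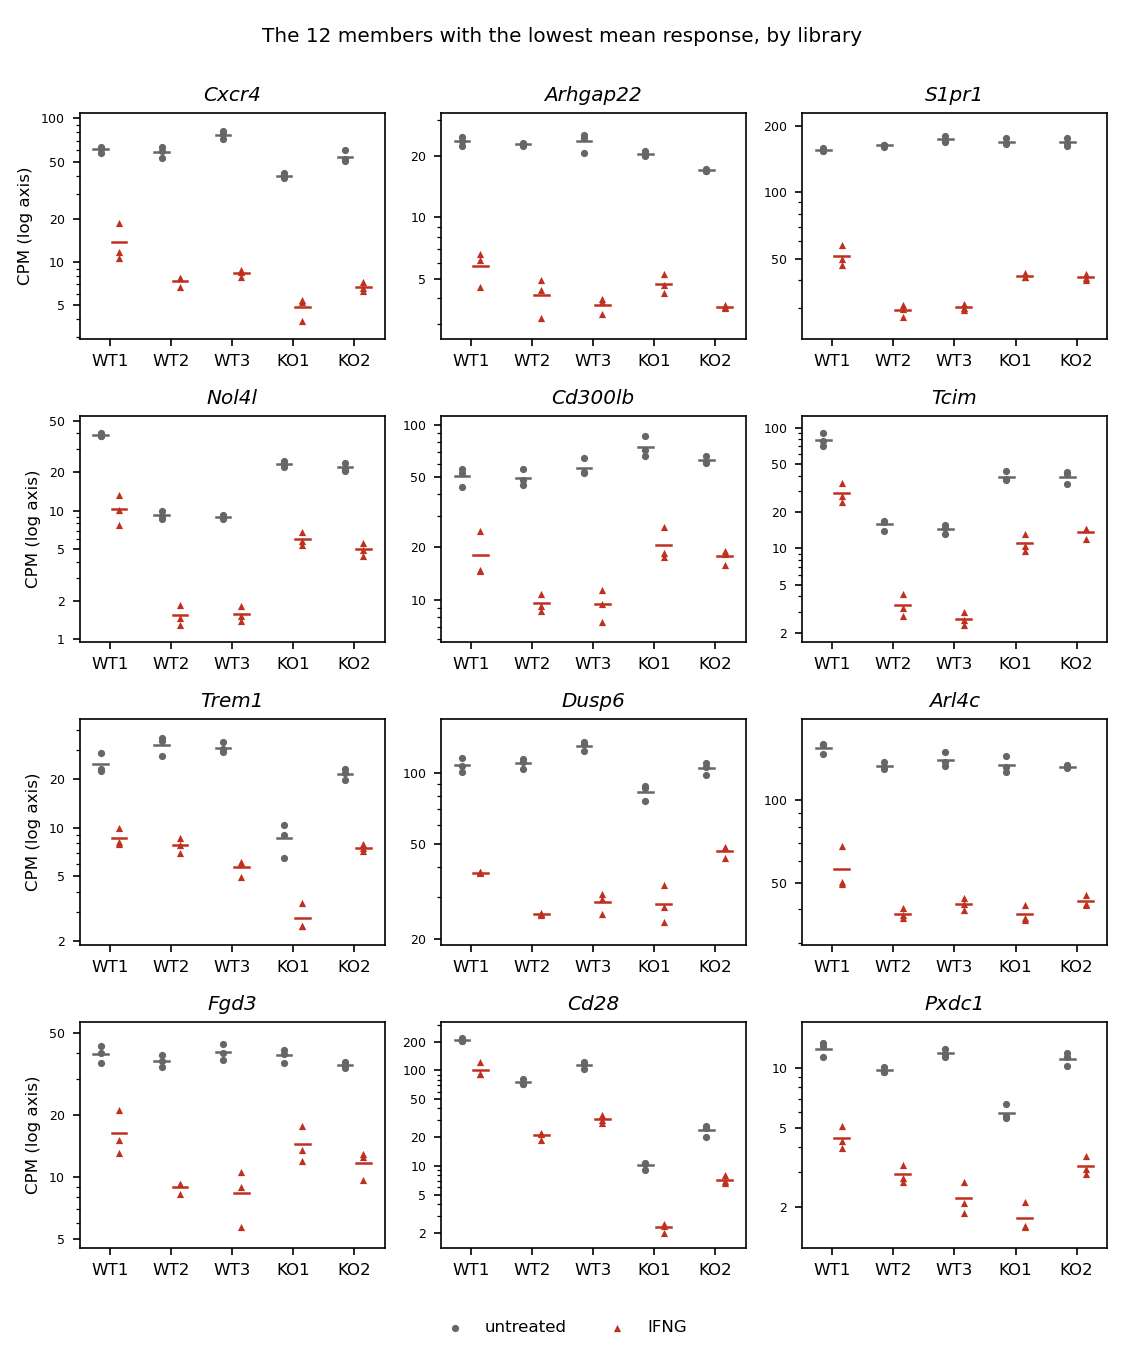
CPM on a log axis of the 12 members with the lowest mean response in every library, by clone (3 untreated libraries as grey circles, 3 IFNG libraries as red triangles, bars for the means). In every panel the triangles lie below the circles of the same clone. The mean of the WT1 triangles is the highest of the 3 WT clones in all 12 panels, and Cd28, Nol4l and Tcim differ several-fold between clones before treatment.

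Kinases, phosphatases and G protein signalling proteins numbered 14 (median response -1.17). Dusp6, the phosphatase of ERK whose gene is itself switched on by ERK, was at 76.2 to 134 CPM untreated (median 106 CPM, n = 15) and at 23.5 to 48.8 CPM after IFNG (median 30.8 CPM), without overlap. The response was -1.49, -2.10 and -2.17 in WT1, WT2 and WT3, and -1.55 and -1.15 in KO1 and KO2. Dusp1, which acts on p38 and JNK as well as ERK, ran from 119 to 411 CPM untreated and from 41.3 to 144 CPM after IFNG. These ranges overlapped across clones, since WT1 was high in both states, with untreated libraries of 332, 370 and 411 CPM, and KO2 reached 131 CPM after IFNG. Its response was -1.32 ± 0.17 (SD, n = 5 clones). Dusp7, also a phosphatase of ERK, responded with -1.27 ± 0.19, the ERK- and p38-dependent kinase Rps6ka5 with -1.06 ± 0.19 and the serum- and glucocorticoid-induced kinase Sgk1 with -1.15 ± 0.23. Fam20c, a kinase of the secretory pathway, was at 150 to 340 CPM untreated and at 52.6 to 179 CPM after IFNG, the high values of both states coming from WT1, KO1 and KO2.

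Targets and brakes of ERK signalling moved in both directions. Of 24 tested genes on the list 13 were called lower and 7 higher (median -0.31), and among the 21 that were not members 10 were lower. Fosb, Fos, the ERK phosphatase Dusp4, cyclin D1 (Ccnd1) and the ETS factor Etv5 fell, with log2FC of -1.15, -0.80, -0.65, -0.60 and -0.36, whereas the immediate-early genes Egr1, Junb and Egr2 rose, with log2FC of 0.86, 0.93 and 2.70.

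Regulators of small GTPases and of the cytoskeleton made up 18 members with a median response of -1.21. Arhgap22, a GTPase-activating protein of Rac, was at 16.9 to 25.5 CPM untreated (median 22.4 CPM, n = 15) and at 3.21 to 6.63 CPM after IFNG (median 4.26 CPM), a mean response of -2.18 ± 0.24. Arl4c, an Arf-like GTPase, went from 128 to 160 CPM (median 135 CPM) to 36.5 to 68.0 CPM (median 41.6 CPM), with responses between -1.80 in KO1 and -1.47 in WT1. Fgd3, an exchange factor for Cdc42, went from 33.8 to 44.3 CPM to 5.75 to 21 CPM, with responses from -2.20 in WT3 to -1.24 in WT1. The endosomal GTPase Rhob (-1.21 ± 0.10), the cofilin phosphatase Ssh2 (-1.21 ± 0.24), lamellipodin (Raph1, -1.36 ± 0.26) and the CapZ-interacting protein Rcsd1 (-1.40 ± 0.28) were each above 100 CPM in the mean of the untreated clones.

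Transcription factors, chromatin proteins and RNA-binding proteins accounted for 18 members (median response -1.16). Smad3, which carries TGF beta signals to the nucleus, was at 22.3 to 33 CPM untreated (median 28.4 CPM, n = 15) and at 7.83 to 12.6 CPM after IFNG (median 9.31 CPM), without overlap. It was the member of a TGF beta and BMP list on which 11 of 17 tested genes were called lower and 1 higher (median -0.24). Of the 16 that were not members 10 were lower, where 28.3% of all genes tested were called lower. The receptor Tgfbr1 (-0.49), the inhibitory Smads Smad6 (-0.82) and Smad7 (-0.80), the corepressor Tgif1 (-0.65) and the targets Id1 (-0.55) and Id3 (-0.47) all fell, and Tgif2 alone rose (0.50).

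Dtx4, a ubiquitin ligase of the Notch pathway, was at 35.6 to 51.8 CPM untreated (median 41.1 CPM, n = 15) and at 11.4 to 18.6 CPM after IFNG (median 14.3 CPM). Its response was nearly equal in the clones, -1.49 ± 0.08. With Jag1 it belonged to a Notch list of which 10 of 12 tested genes were called lower and 2 higher (median -0.38). Members are lower by the rule, and of the other 10 genes 8 were called lower. The targets Hes1 and Hey1 fell from 2.24 to 0.533 CPM and from 0.586 to 0.200 CPM, and the DNA-binding partner Rbpj fell by 0.29 on the log2 scale. The receptors themselves rose: Notch1 went from 28.3 to 79.6 CPM and Notch2 from 110 to 154 CPM.

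Bhlhe41, a basic helix-loop-helix repressor of the circadian clock, was at 100 to 204 CPM untreated (median 120 CPM, n = 15) and at 23.7 to 127 CPM after IFNG (median 52.8 CPM). Its response varied most of all members, from -1.97 in WT3 and -1.79 in WT2 to -1.15 in KO1, -0.94 in WT1 and -0.93 in KO2. Of 17 tested clock and PAR bZIP factors, 13 were called lower, 12 of them no members, and 2 higher (median -0.49). Nr1d1, Dbp, Cry2 and Arntl had log2FC of -1.21, -0.82, -0.79 and -0.65, and Nfil3 rose (0.59). Of 25 tested macrophage lineage factors 14 were called lower, among them Mef2c (-0.62), Cebpa (-0.97) and Mitf (-0.90), and 7 higher, among them Tfec (3.63) and Irf8 (2.39). Of the 24 lineage factors that were not members 13 were called lower.

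Other members of this class were the ETS factors Ets2 and Etv1. Ets2 was at 209 to 279 CPM untreated (median 225 CPM) and at 65.3 to 137 CPM after IFNG (median 93.0 CPM), and Etv1 responded with -1.05 ± 0.11. Zmiz1, a transcriptional coregulator, went from 196 to 278 CPM to 94.3 to 157 CPM. E2f2 responded with -1.02 ± 0.06, on a list of G1 and S phase genes of which 18 of 25 were called lower, 17 of them no members, and 3 higher (median -0.19). Cdc6 (-0.77), Cdt1 (-0.65) and Ccnd1 fell, and the cell cycle inhibitor Cdkn1a rose (0.66).

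Zfp36l2, which binds AU-rich elements of mRNAs, went from 200 to 338 CPM untreated (median 320 CPM, n = 15) to 96.9 to 157 CPM after IFNG (median 142 CPM), a response of -1.16 ± 0.06 with one of the smaller spreads over clones. Its relative Zfp36 rose from 138 to 533 CPM (log2FC 2.06), and Zfp36l1 fell slightly (-0.40). Zfp36l2 and heme oxygenase (Hmox1, -1.0 ± 0.17) were the 2 members on a list of early inflammatory genes, where 11 of 17 were called higher and 5 lower. Of the 15 that were not members 3 were lower.

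In metabolism and transport there were 11 members (median -1.16). Abca1, which exports cholesterol, was at 120 to 217 CPM untreated (median 149 CPM, n = 15) and at 60.1 to 110 CPM after IFNG (median 71.5 CPM), a response of -1.05 ± 0.12. Of 22 tested LXR, PPARG and lipid handling genes, 9 were called lower and 8 higher, and of the 21 that were not members 8 were lower. Among members with no role given here, Nol4l went from 8.59 to 39.8 CPM to 1.29 to 13.1 CPM (-2.03 ± 0.19), Tcim from 13.2 to 90.3 CPM to 2.30 to 34.5 CPM (-1.81 ± 0.36) and Pxdc1 from 5.61 to 13.3 CPM to 1.59 to 5.09 CPM (-1.66 ± 0.31).

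The sequences at the start sites were read for the motifs of the factors named above. RefSeq promoter windows (build GRCm38.p6, 250 bases before to 50 bases after a start) were matched by symbol for 78 of the 104 members. Those of the chemokine receptor with the largest fall, of the myeloid receptor with a GAS match and of the MAP kinase phosphatase are shown 5′ to 3′ on the strand of the gene, with every motif match in capitals. In Cxcr4 (chr1:128592250-128592549, minus strand) the capitals are TTTATAAA, a TATAAA match on both strands that overlap each other. In Trem1 (chr17:48232489-48232788, plus strand) they are a GAS match, and in Dusp1 (chr17:26508423-26508722, minus strand) a cAMP response element and an E-box.
Cxcr4: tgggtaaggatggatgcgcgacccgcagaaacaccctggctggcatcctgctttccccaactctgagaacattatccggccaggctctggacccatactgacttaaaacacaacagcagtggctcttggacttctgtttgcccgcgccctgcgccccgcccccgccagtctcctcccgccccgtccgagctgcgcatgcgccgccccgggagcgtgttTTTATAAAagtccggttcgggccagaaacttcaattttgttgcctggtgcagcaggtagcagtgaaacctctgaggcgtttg
Trem1: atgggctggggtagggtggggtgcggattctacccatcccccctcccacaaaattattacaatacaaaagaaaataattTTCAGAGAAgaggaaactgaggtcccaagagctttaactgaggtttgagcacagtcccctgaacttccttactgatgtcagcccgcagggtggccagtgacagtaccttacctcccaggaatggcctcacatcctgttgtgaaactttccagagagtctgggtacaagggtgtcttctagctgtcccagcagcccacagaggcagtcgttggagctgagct
Dusp1: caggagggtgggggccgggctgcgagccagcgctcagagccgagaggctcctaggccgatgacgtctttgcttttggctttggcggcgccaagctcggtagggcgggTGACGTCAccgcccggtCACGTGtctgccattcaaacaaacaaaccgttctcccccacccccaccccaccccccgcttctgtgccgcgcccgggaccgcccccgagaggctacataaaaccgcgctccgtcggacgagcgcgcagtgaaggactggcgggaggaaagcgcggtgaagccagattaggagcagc

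Motifs were searched on both strands, and a match is a description of these windows only. The GAS letters TTCNNNGAA stood in 7 of 78 members, 8.97%, against 8.20% of 8077 genes that reached 2 CPM untreated and 9.55% of all 27025 genes with a window. The 7 were Aatk, Ptpn22, Ptpre, Rhof, Rnf144b, Sgk1 and Trem1. For the ISRE letters TTTC and TTTC with any 2 bases between them the shares were 3.85%, 3.89% and 3.99%, for the cAMP response element TGACGTCA 3.85%, 3.91% and 2.03%, for the E-box CACGTG 12.8%, 12.5% and 8.09%, and for the AP-1 letters TGANTCA 7.69%, 5.65% and 8.97%. The ETS letters GAGGAAGT stood in 6.41% of members against 3.89% and 3.69%, the Notch partner letters TGGGAA in 24.4% against 26% and 28.3%, and the NF-kB letters GGGA and TTTCC with any base between them in 0 of 78 against 0.470% and 0.466%. The palindrome GTCTAGAC of Smad factors was in 0 of 78 as well, against 0.310% and 0.248%. TATAAA was in 16 of 78 members, 20.5%, against 8.11% of the genes at or above 2 CPM and 15.7% of all. On the strand of the gene and starting 40 to 20 bases before the start, it was in 5 members (Abca1, Cd300lb, Cxcr4, Pxdc1 and Sgk1), 6.41% against 1.21% and 2.41%. The GC content of the windows had a median of 62.7% in members and of 61.0% in the genes at or above 2 CPM.

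A coding gene was annotated for 97 of the 104 members, and the rest were non-coding transcripts or, in 1 case, a record of unknown coding status. In 95 members a 3′ UTR of at least 50 bases could be read from GENCODE vM21 (mm10, the transcript with the longest coding sequence), and its length had a median of 1666 bases against 1013 bases in 9769 expressed genes. The AU-rich heptamer TATTTAT, to which ZFP36 proteins bind, was in 38 of 95, 40%, against 28.4% of the 9769. Longer UTRs hold it more often, and in UTRs of at least 2000 bases the shares were 50% of 42 members and 54.3% of 2534 genes, while between 1000 and 2000 bases they were 47.6% of 21 and 33% of 2390. Between 500 and 1000 bases they were 33.3% of 18 and 20.1% of 2028, and between 50 and 500 bases 7.14% of 14 and 7.10% of 2816. The first such site after the stop codon is shown for 6 members named above, to show the letters around it, 5′ to 3′ on the strand of the gene and with the heptamer in capitals. They lie in the 3′ UTR of Nol4l at chr2:153411230-153411250 (minus strand), of Cd28 at chr1:60773209-60773229 (plus), of Smad3 at chr9:63647338-63647358 (minus), of Dusp1 at chr17:26506163-26506183 (minus), of Jag1 at chr2:137082668-137082688 (minus) and of C5ar1 at chr7:16247206-16247226 (minus).
Nol4l: aattgcaTATTTATtgagaag
Cd28: tttttctTATTTATtggttta
Smad3: gctttcgTATTTATgtaacaa
Dusp1: tggtcctTATTTATttaacac
Jag1: atagtttTATTTATatttatt
C5ar1: aagcacgTATTTATttatttt

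Some members shared reads. The authors counted a read for every gene it overlapped on the strand, and 77.6% of the exon bases of Gm47282 lay in exons of Ampd3, so these 2 members are partly the same reads. Gm45883 shared 51.1% of its exon bases with Mmd (response -0.84) and Pram1 87.5% with Gm20507 (response -0.68), neither of which was a member. Polycomb genes Cbx2 and Cbx8, 5035 bases apart on chromosome 11, were both members (-1.24 and -1.33), and so were Lpar5 and 2010008C14Rik, 965 bases apart on chromosome 6, and Gm45606 and Slc43a2, whose spans overlapped on chromosome 11.

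The size of the fall was not the same in the 5 clones. Testing whether the response differed among clones (edgeR quasi-likelihood test of the 4 clone-by-treatment terms, Benjamini-Hochberg adjusted p under 0.05 over 14870 genes) called 38 of the 104 members, 36.5%, where 3.68% of all genes tested were called. Of 247 genes that met the mirrored rule (a response of 0.8 or more in every clone), 126 were called, 51.0%. These raised genes had a median response of 1.58, against -1.17 in the members, and a median untreated level of 21.8 CPM against 34.2 CPM. The part of response size or level in the calls was not tested. The response of each clone entered the rule, which set the smallest fall but no largest.

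S1pr1 had the lowest adjusted p (7.56e-10), followed by Dusp6 (4.33e-08), Nfatc2 (9.78e-08), a transcription factor of calcium signalling, Rcsd1 (2.58e-07), Ets2 (9.54e-07) and Bhlhe41 (1.22e-06). Cxcr4 (0.000543), C5ar1 (0.00115), Trem1 (0.00185), Cd28 (3.41e-05) and Hmox1 (0.000961) were called too, all by the same edgeR test. Members whose response was alike in the clones included Adcy9, an adenylate cyclase, with an SD of 0.03 over the 5 clones, Zfp36l2 (0.06), E2f2 (0.06), Dtx4 (0.08) and Mertk (0.08), none of which passed the test. The median SD of a member over the 5 clones was 0.17, from 0.03 to 0.49.

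WT1 gave the smallest fall and WT3 the largest for most of the called members. Among the 38, the least repressed clone was WT1 in 23, KO2 in 8 and KO1 in 7, and the most repressed clone was WT3 in 32, WT2 in 5 and KO1 in 1. Over all 104 members the median response was -1.03 in WT1, -1.23 in WT2, -1.29 in WT3, -1.15 in KO1 and -1.10 in KO2. The raised genes showed part of this order, with medians of 1.51, 1.64 and 1.68 in WT1, WT2 and WT3, although KO1, at 1.66, was close to WT3. Without WT3 14 members were called (2.16% of all genes), without WT2 24 (2.69%) and without WT1 34 (3.37%), of which 30 were among the 38. Without the WT1 IFNG library that stood apart, 35 members were called (4.15% of all genes).

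**Figure D3:**
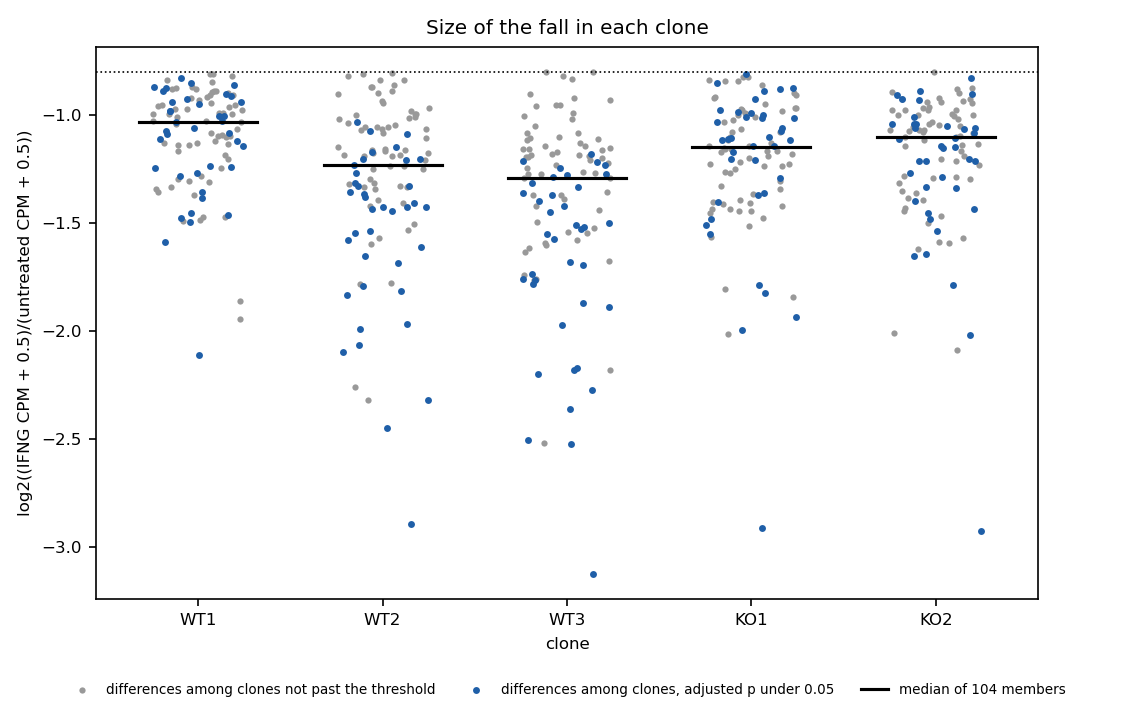
Response to IFNG, log2((IFNG CPM + 0.5)/(untreated CPM + 0.5)), of each of the 104 members in each clone (points, spread sideways at random), with the median as a bar and the rule's threshold of -0.8 as a dotted line. Blue points are the 38 members whose response differed among clones. They reach lowest in WT3 and lie highest in WT1, whose median is -1.03.

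The KO and WT clones were then compared for the response itself. The difference of the log2 response, KO minus WT, was above 0 (a smaller fall in KO) in 71 members and below 0 in 33, with a median of 0.09 against 0.00 for all genes tested and a median SE of 0.10. It passed the edgeR test in 5 members, 4.81%, all of them with the smaller fall in KO. Of all 14682 genes 1.02% passed, 0.681% with a difference above 0, which in a gene raised by IFNG is a larger rise in KO. Of the 247 raised genes 42 passed, 17%.

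Ptpre, a protein tyrosine phosphatase, had the lowest adjusted p. Its untreated level was 40.7 to 48.7 CPM in the 9 WT libraries and 38.3 to 43.8 CPM in the 6 KO libraries, and its IFNG level 15.1 to 21.3 CPM in WT and 20.6 to 22 CPM in KO. After IFNG 3 of the 6 KO libraries lay above every WT library and the other 3 above all but 1 of them. The difference of the response was 0.41 ± 0.06 (SE, adjusted p = 0.000324, edgeR), from -0.85 and -0.90 in KO1 and KO2 against -1.08, -1.32 and -1.37 in the WT clones. Untreated, Ptpre was called lower in KO (log2FC -0.16 ± 0.04, adjusted p = 0.0146, edgeR) and after IFNG higher (0.26 ± 0.07, adjusted p = 0.00881).

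Ets2 differed by 0.40 ± 0.08 (adjusted p = 0.00754, edgeR), with -0.99 and -1.20 in the KO clones and -1.24, -1.44 and -1.73 in the WT clones. Sgk1 differed by 0.39 ± 0.09 (adjusted p = 0.0209, edgeR), with -0.81 and -1.05 against -1.24, -1.43 and -1.22, and its untreated level was lower in KO (39.9 to 64.7 CPM) than in WT (56.3 to 77.6 CPM). Jag1 differed by 0.34 ± 0.08 (adjusted p = 0.0335, edgeR), with -0.90 and -0.98 against -1.30, -1.17 and -1.16. The Jag1 call was lost in 12 of the 30 fits that left out 1 library, whereas those of Ptpre, Ets2, Sgk1 and Dusp6 were lost in 0. For these 3 genes and Ptpre both KO clones lay above every WT clone. For Dusp6 they did not: its difference was the largest, 0.61 ± 0.12 (adjusted p = 0.00585, edgeR), but WT1 (-1.49) fell by less than KO1 (-1.55).

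These calls rested on libraries, and on single clones in part. When the libraries of a clone and treatment were added up and clones served as replicates, 0 of 104 members passed in edgeR (22 had an unadjusted p under 0.05). By adjusted p, 2 of 16844 genes passed at all, and the unadjusted count was not made over all genes. Without WT1, 41 members passed, all with the smaller fall in KO, where 3.96% of all genes passed in either direction, and without the single WT1 IFNG library that stood apart 13 did, where 1.6% passed. Without WT2, WT3, KO1 or KO2 the count was 1, 2, 1 and 3, where 0.239%, 0.50%, 0.143% and 0.884% of all genes passed.

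**Figure D4:**
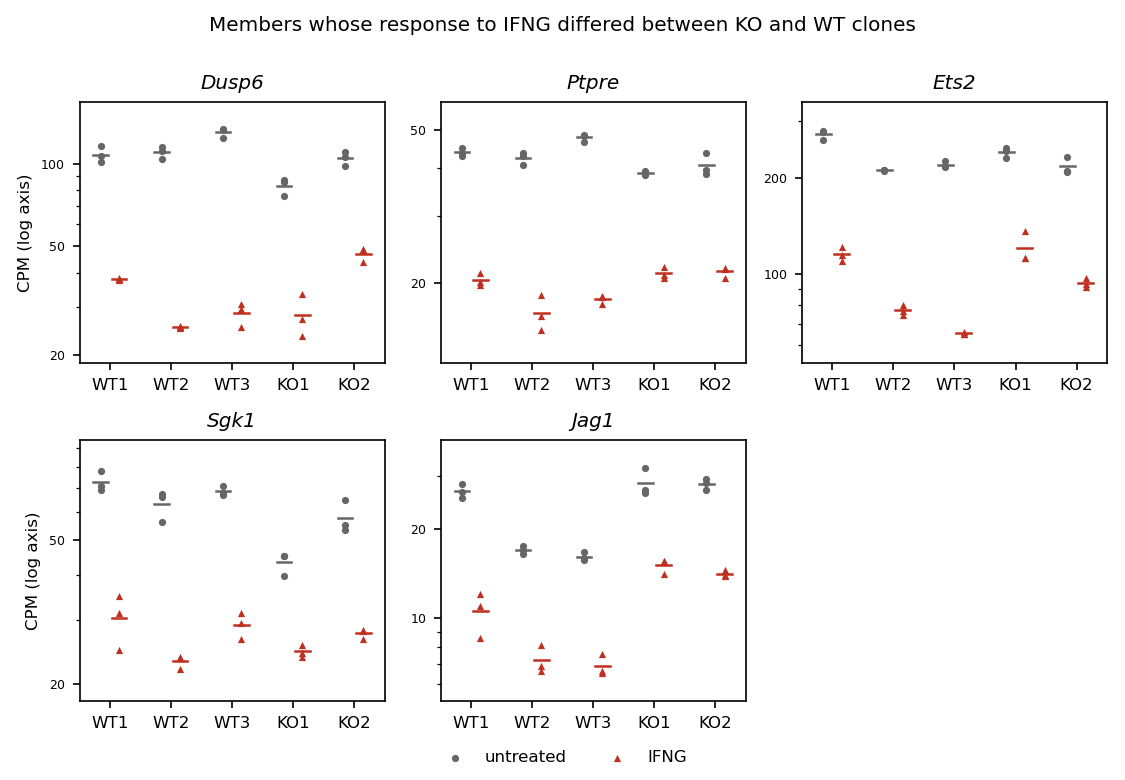
CPM on a log axis of Dusp6, Ptpre, Ets2, Sgk1 and Jag1 in every library, by clone (3 untreated libraries as grey circles, 3 IFNG libraries as red triangles, bars for the means). The distance between circles and triangles is shorter in KO1 and KO2 than in the WT clones for Ptpre, Ets2, Sgk1 and Jag1, and for Dusp6 it is shortest in KO2 and about equal in KO1 and WT1.

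Levels before treatment varied between clones for almost every member. A test of any difference among the 5 clones called 95 of the 104 members, 91.3%, where 73.2% of 14467 genes were called. Between KO and WT 39 members were called (10 higher and 29 lower in KO), 37.5%, where 26.6% of 13886 genes were called, 12.2% higher and 14.4% lower. After IFNG 29 members were called (11 higher and 18 lower), 27.9%, where 23.9% of 13637 genes were called, 10.9% higher and 13% lower. The members' median log2FC was -0.08 untreated and 0.01 after IFNG. Of the 39 calls, 31 had KO1 and KO2 both below or both above every WT clone mean, a count that was not made for all genes called. Of the members, 22 were called in the same direction in both states, 15 lower and 7 higher, and Ptpre in opposite directions. Calls in both states were not counted over all genes either, so neither count is read as particular to the members.

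Cd28 differed most, by -2.95 ± 0.35 untreated (adjusted p = 1.7e-05, edgeR) and by -3.37 ± 0.54 after IFNG (adjusted p = 0.000286), and every KO library of a state was below every WT library. KO1 and KO2 were each called against WT (-3.70 and -2.47). Raph1 was at 141 to 209 CPM in untreated WT libraries and at 73.7 to 102 CPM in KO, a difference of -1.06 ± 0.10 (adjusted p = 2.4e-06, edgeR). Mertk was at 29.2 to 61.2 CPM in WT and at 17.1 to 26.5 CPM in KO (-1.10 ± 0.18, adjusted p = 0.000288, edgeR), and after IFNG the difference was about as large (-1.05 ± 0.16). The kinase Aatk (-1.08 ± 0.12) was lower in both KO clones as well, before IFNG and after it, while the endocytic adaptor Epn2 was higher (1.12 ± 0.20). Trem1 was lower in untreated KO (-0.95 ± 0.24, adjusted p = 0.00762, edgeR), by -1.76 in KO1, which was called, and by -0.44 in KO2, which was not, and was not called after IFNG.

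After IFNG, the peroxisomal transporter Abcd2 was lower in KO (-0.93 ± 0.28, adjusted p = 0.0231, edgeR, a call lost without either of 2 KO1 IFNG libraries and without WT1, KO1 or KO2) and the ubiquitin ligase Rnf144b higher (0.91 ± 0.17, adjusted p = 0.00115). Tested clone by clone against WT before treatment, 44 members were called in KO1 (33 lower and 11 higher), where 25.7% of all genes were called, 14.6% lower and 11.1% higher. In KO2 18 were called (11 lower and 7 higher), where 11.6% of all genes were, 6.7% lower and 4.89% higher. The same WT libraries served both comparisons. Raph1 had a log2FC of -1.20 in KO1 and -0.93 in KO2, Mertk of -1.31 and -0.92, Aatk of -1.35 and -0.86 and Epn2 of 1.52 and 0.57.

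**Figure D5:**
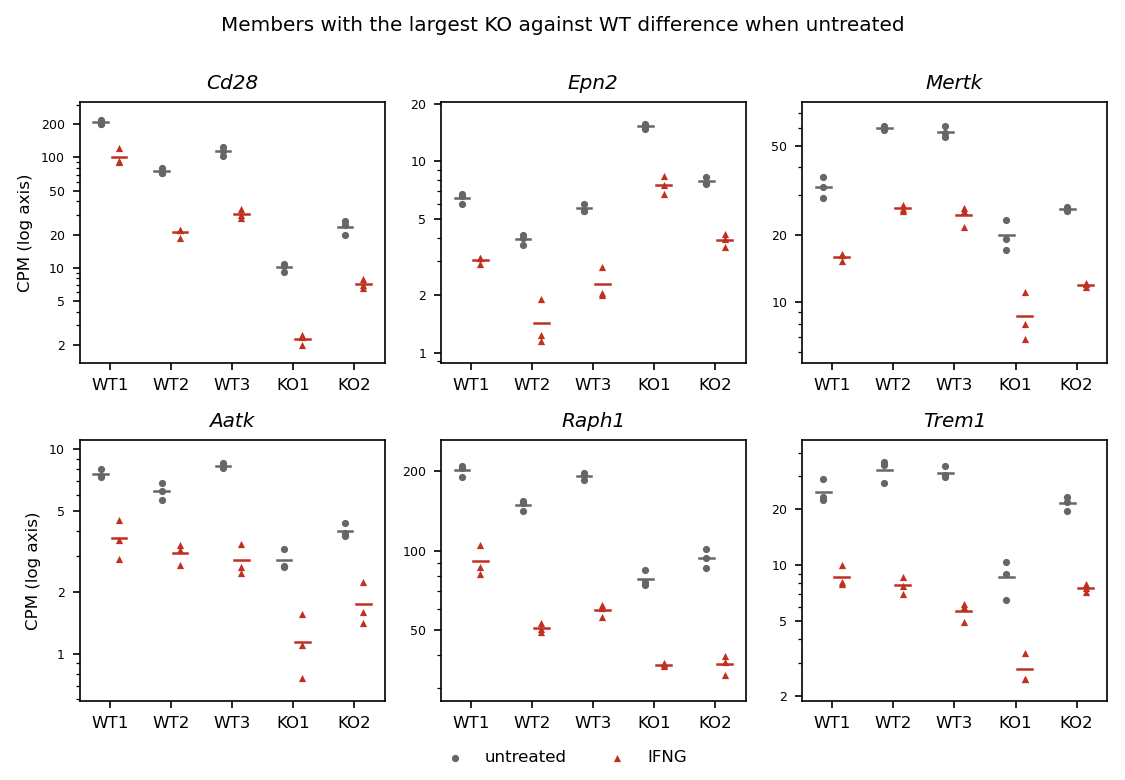
CPM on a log axis of the 6 members with the largest KO to WT difference in untreated cells among those whose 2 KO clones both lay below or above every WT clone, in every library, by clone (grey circles untreated, red triangles IFNG, bars for the means). In the untreated libraries the means of Cd28, Mertk, Aatk, Raph1 and Trem1 are lower in KO1 and KO2 than in every WT clone, and that of Epn2 is higher, with KO1 at 14.8 to 15.7 CPM.

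Whole chromosomes also differed between the clones. The median log2FC of KO1 against WT was -0.37 over 505 tested genes of chromosome 12, which carries Dicer1, while that of KO2 was 0.00. On chromosome 6 both medians were lower (-0.27 in KO1 and -0.28 in KO2) and on chromosome 17 both were higher (0.18 and 0.19), and on every other chromosome they lay between -0.09 and 0.07. Of the 5 members on chromosome 12, 4 were called lower in KO1, with a median of -0.57, where 58.2% of the 505 genes were called lower. Leaving the 15 members of these 3 chromosomes out of the count left 33 of 89 called untreated, 23 lower and 10 higher. The share of all genes called outside these chromosomes was not computed, so no excess among the 89 is read from this. The part of these chromosomes in the members' differences was otherwise not tested.

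With libraries added up by clone, none of the 104 members passed between KO and WT in edgeR, untreated (20 with an unadjusted p under 0.05) or after IFNG (12). By adjusted p, 1 gene in the table passed in each state, and genes with an unadjusted p under 0.05 were counted among the members only. Without WT1 65 members were called untreated (35 lower and 30 higher in KO), where 47.8% of all genes were called, and 62 after IFNG (15 lower and 47 higher), where 44.8% were. Without KO1 18 were called untreated (11 lower and 7 higher, 11.6% of all genes) and 14 after IFNG (8 lower and 6 higher, 10% of all genes). Leaving out WT1 thus turned the balance of the members' calls after IFNG from more lower to more higher, and the share of all genes called moved with the members' count. Directions were not counted over all genes in these fits, so this turn is not read as particular to the members.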

How the data were processed

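The measurements were RNA-seq counts of 30 libraries. The authors used BBDuk to trim reads and HISAT2 2.1.0 to align them to mm10, kept uniquely mapped fragments, merged technical repeats with SAMtools 1.10 and deposited counts per gene from featureCounts 1.6.2, reverse stranded, with a read counted for every gene it overlapped. The annotation was Gencode vM18 by the deposited header and RefSeq by the methods. The other 13 deposited tables list counts of subsets of the same libraries and were not used for values. Columns named clone and treatment but no replicate number, so libraries are numbered in column order, and the columns of WT2 and WT3, which carry other clone names, were matched through the headers of those tables.

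CPM came from library totals. Members and gene lists were chosen with earlier results of these data known. Tests were edgeR 4.0.16 quasi-likelihood (R 4.3.3, TMM, filterByExpr, Benjamini-Hochberg over all genes tested), on libraries. The scripts were tested on simulated data. Genes named were those with the lowest responses, the most reads, the largest called differences, the members on the lists and the genes at the threshold, and further genes of the lists and of the tests were named after their values were seen. Results of some genes, 1 member among them, are not reported here.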

Additional observations from a re-analysis of the deposited data

Results flagged for a closer look

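In 5 members the response to IFNG differed between the KO and the WT clones by an edgeR interaction test across libraries. The difference of the log2 response, KO minus WT, was 0.61 for Dusp6, 0.41 for Ptpre, 0.40 for Ets2, 0.39 for Sgk1 and 0.34 for Jag1. The KO clones lay outside the range of the WT clones for Ptpre, Ets2, Sgk1 and Jag1 and not for Dusp6. None of the 5 passed when the counts of each clone were summed. The rule used the response of every clone, so these calls are not independent of how the members were chosen.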

How the results depend on the processing

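Members called untreated between KO and WT numbered 39 (26.6% of all genes were called), and 65 without WT1 (47.8%), 18 without KO1 (11.6%) and 0 with counts summed per clone (0.00618%). After IFNG the 29 calls (23.9%) became 62 (44.8%), 14 (10%) and 0 (0.00617%), so the members' counts moved with those of all genes. The 5 calls on the difference of the response (1.02% of all genes) became 21 with no count filter (1.32%; 2 of the 21 with the larger fall in KO), 9 with DESeq2 (0.731%), 41 without WT1 (3.96%), 1 without WT2, 2 without WT3, 1 without KO1, 3 without KO2 and 0 with summed counts. The 38 calls among clones became 24 without WT2 and 14 without WT3, alternatives chosen after seeing the data, as was leaving out chromosomes 6, 12 and 17. With single libraries left out the 4 counts ran from 30 to 44, from 20 to 36, from 4 to 13 and from 29 to 42. The difference of the response had 13 calls without replicate 3 of the WT1 IFNG libraries and 9 without replicate 1 of the untreated WT1 libraries. A threshold of -1.0 in every clone left 44 members, TMM scaling 85, a pseudocount of 2 CPM 71 and of 0.1 CPM 116, and single libraries left out gave 99 to 107, with a median response of -1.18 to -1.16. The cause of these changes was not tested. No paired analysis was possible because the columns carry no replicate numbers.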

Other observations

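Where 28.3% of all genes were called lower and 24.9% higher after IFNG, the listed groups without a member gave these counts. Of 21 tested toll-like receptors and adaptors 8 were called lower and 9 higher by edgeR, of 21 genes of CSF1 and CSF2 receptor signalling 6 lower and 11 higher, of 19 integrins and adhesion genes 8 and 7, of 14 genes of alternative activation 4 and 5, and of 15 reference genes 3 and 2.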
